A study of Mus musculus with 14 samples.

Results

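The Hox genes, the homeobox transcription factor genes of the 4 vertebrate clusters, were followed in mouse tail fibroblasts before and during reprogramming to pluripotency. The members were 38 Hox genes matched by symbol among the 22026 genes of the RNA tables. The second part was every CpG position read in 4 windows of the mouse build mm9 that hold the clusters: HoxA at chr6:52100000-52215000, HoxB at chr11:96050000-96235000, HoxC at chr15:102745000-102875000 and HoxD at chr2:74500000-74610000. Genes were chosen by symbol and positions by coordinate. The windows held 4705 to 5498 covered CpG positions per library, of 1659832 to 2154007 in the whole library.

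The study compared wildtype cells with cells labelled AID-null, which lack activation-induced deaminase, a cytosine deaminase of B cells that has been studied as a possible DNA demethylation factor. Each genotype had 1 RNA library and 1 RRBS library of untreated tail fibroblasts. Each also had 1 of both from a bulk culture reprogrammed for 3 weeks with introduced Oct4, Sox2, Klf4 and cMyc, and 3 RRBS libraries of clones that were picked at 2 weeks and harvested at 3 weeks. RRBS, reduced representation bisulfite sequencing, reports the methylation of cytosines in restriction fragments rich in CpG. The clones had no RNA library among those used here. The labels do not say whether clones or cultures of one genotype came from separate animals, nor how the factors were delivered, so p-values over clones measure the spread between these clones, which may be technical. The AID-null RNA libraries held 184 and 274 FPKM of the Y-linked gene Eif2s3y and the wildtype libraries 0, whereas Xist was at 456 and 149 FPKM in wildtype and at 0.99 and 1.78 in AID-null, so genotype and sex cannot be told apart.

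Hox proteins specify position along the body axis. Within each cluster the genes lie in the order of their paralog groups, numbered 1 to 13, and low-numbered genes act towards the head while groups 9 to 13 act in the lumbar, sacral and tail region and in distal limbs. Fibroblasts of adults keep the Hox pattern of the site they came from. In pluripotent cells the clusters are largely silent and carry Polycomb marks, and their CpG islands are usually unmethylated.

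All RNA values are FPKM, a read density per length of transcript and per size of library. RNA differences are given on the log2(FPKM + 1) scale, which understates changes of low genes, and a gene counts as higher or lower when its 2 values lie at least 1 apart and it had at least 1 FPKM in either library. With 1 RNA library per group there is no replicate check and no p-value for RNA, and the RNA read depth is unknown. In bulk samples, fewer cells of a type and less RNA per cell cannot be told apart. All 20 fibroblast markers were detected at 83.7 FPKM or more in both fibroblast libraries, and all 17 pluripotency markers were at 26.8 FPKM or more at 3 weeks, against a highest value of 4.67 in fibroblasts, which matches the labels. The fibroblast libraries also held RNA of 15 macrophage markers, which summed to 1732 FPKM in wildtype and 3072 in AID-null fibroblasts and to 378 and 1456 at 3 weeks, with 7 of 15 at 0 in the wildtype 3-week culture. In wildtype cells 13 of them were at least 1 lower at 3 weeks, but Cd14 went from 37.6 to 219 FPKM and Cd68 from 85.3 to 112. Lyz2 alone held 903 FPKM of the AID-null 3-week sum. The 13 keratinocyte markers summed to 21.1, 20.1, 219 and 51.1 FPKM in wildtype fibroblasts, AID-null fibroblasts, the wildtype and the AID-null 3-week cultures. Of the wildtype 3-week sum, Krt6b held 96.2 FPKM, Sfn 54.2 and Krt6a 33.3, whereas Trp63 went from 10.6 to 0 and Krt5 from 1.67 to 1.04. The part of macrophages or keratinocytes, if any, in the Hox results was not tested.

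RefSeq promoter sequences were given for 22 of the 38 genes, as 24 sequences of 300 bases from the build GRCm38.p6. They held a median of 14.5 CpG against 7 for all 32851 promoters of the table, and a median of 57.7% G and C against 52.7%. Since mm9 coordinates of the genes were not given, each sequence was laid against the CpG positions read in the windows, and 14 promoters had 1 best place where every CpG site read was a CG of the sequence. The place with the most sites was taken. Hoxa13 matched 39 sites there and met the rule at another place with 6. The 5 placed in HoxA and the 7 placed in HoxD lay in the RefSeq gene order, and HoxB and HoxC had 1 each, so order says nothing of those. The 250 bases before the start site are shown for 5 genes on which the methylation results turn: the 3 placed promoters that were methylated in fibroblasts (Hoxa5, Hoxa6 and Hoxd12), one that was unmethylated at an expressed gene (Hoxa13) and one that was unmethylated at a gene listed at 0 in fibroblasts (Hoxd13). Sequences run 5′ to 3′ on the strand of the gene, and capitals mark the CpG sites read by RRBS in at least 1 library.
Hoxa5 (mm9 chr6:52154587-52154836, minus strand): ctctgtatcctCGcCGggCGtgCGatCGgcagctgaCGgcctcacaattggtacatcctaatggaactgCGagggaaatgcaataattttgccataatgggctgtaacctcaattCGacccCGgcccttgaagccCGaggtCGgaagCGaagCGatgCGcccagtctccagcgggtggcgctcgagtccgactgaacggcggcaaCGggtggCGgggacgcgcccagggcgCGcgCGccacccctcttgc
Hoxa6 (mm9 chr6:52158672-52158921, minus strand): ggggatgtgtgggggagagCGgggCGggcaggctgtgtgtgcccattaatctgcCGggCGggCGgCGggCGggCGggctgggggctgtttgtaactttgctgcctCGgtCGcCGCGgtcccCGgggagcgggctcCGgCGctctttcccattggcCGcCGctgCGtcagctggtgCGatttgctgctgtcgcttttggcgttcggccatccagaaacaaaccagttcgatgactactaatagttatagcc
Hoxd12 (mm9 chr2:74512820-74513069, plus strand): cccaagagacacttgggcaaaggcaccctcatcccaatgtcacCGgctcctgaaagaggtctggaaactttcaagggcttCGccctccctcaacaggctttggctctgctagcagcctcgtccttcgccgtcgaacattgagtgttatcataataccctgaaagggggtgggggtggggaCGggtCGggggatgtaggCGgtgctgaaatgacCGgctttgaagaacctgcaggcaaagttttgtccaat
Hoxa13 (mm9 chr6:52210875-52211124, minus strand): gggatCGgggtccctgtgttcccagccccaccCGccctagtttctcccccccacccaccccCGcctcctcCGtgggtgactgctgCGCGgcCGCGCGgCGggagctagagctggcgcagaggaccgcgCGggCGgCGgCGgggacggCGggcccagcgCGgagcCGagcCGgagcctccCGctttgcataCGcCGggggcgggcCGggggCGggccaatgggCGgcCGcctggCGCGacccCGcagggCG
Hoxd13 (mm9 chr2:74506032-74506281, plus strand): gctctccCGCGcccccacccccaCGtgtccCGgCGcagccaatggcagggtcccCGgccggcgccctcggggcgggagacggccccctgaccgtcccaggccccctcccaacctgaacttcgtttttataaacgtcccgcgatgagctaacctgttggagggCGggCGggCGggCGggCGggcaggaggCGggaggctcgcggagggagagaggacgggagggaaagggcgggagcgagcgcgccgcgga
In these 250 bases 18 of 28 CpG were read for Hoxa5, 19 of 24 for Hoxa6, 6 of 10 for Hoxd12, 29 of 35 for Hoxa13 and 12 of 31 for Hoxd13.

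Tail fibroblasts of both genotypes carried RNA of the HoxA, HoxB and HoxC clusters with the posterior members at high levels, and almost none of HoxD. Of 38 members, 30 reached 1 FPKM in the wildtype fibroblasts, 31 did so in the AID-null ones, and 22 reached 5 FPKM in each. Paralog groups 9 to 13 (16 members) summed to 863 FPKM in wildtype and 821 in AID-null fibroblasts. Groups 5 to 8 (11 members) summed to 127 and 134, and groups 1 to 4 (11 members) to 66.3 and 77.8. By cluster the sums were 201 and 183 FPKM for HoxA, 373 and 425 for HoxB, 473 and 410 for HoxC, and 9.75 and 14.3 for HoxD.

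Hoxc12, a posterior gene of the HoxC cluster, had the highest level, 204 FPKM in wildtype cells and 185 in AID-null cells. Hoxb9, a gene of the trunk, followed at 155 and 161. Hoxc13, which is needed for hair and nail formation, was at 119 and 106, and Hoxa10 at 86.7 and 81.2. Hoxb13, a gene of the tail end of the axis, was at 80.0 and 110 FPKM, below Hoxa10 in wildtype and above it in AID-null cells. Hoxc10, a lumbar patterning gene, was at 78.7 and 59.4. Hoxa11, which patterns the forearm and the uterus, was at 44.9 and 32.4. Its antisense transcript overlaps it, and since the counting is not known to use strand the 2 cannot be told apart. Hoxc11 was at 38.1 and 32.5, and Hoxa13, needed for digits and the hindgut, at 27.02 and 24.6.

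The middle of the order was held by HoxB genes. Hoxb7 was at 28.8 and 29.7 FPKM in wildtype and AID-null fibroblasts, Hoxb6 at 27.2 and 29.2, Hoxb3 at 22.7 and 26.1 and Hoxb2 at 22.3 and 29.2. Hoxa9, known from leukaemia, was at 19.8 and 17.4, Hoxb8 at 18.2 and 20.6, and Hoxc6 at 17.8 and 12.3. Hoxc4, Hoxc5 and Hoxc6 can share transcripts, so the split of reads between these 3 is uncertain. Hoxb4, a regulator of blood stem cells, was at 9.53 and 9.13, Hoxb5 at 9.21 and 10.7, and Hoxc9 at 6.96 and 7.28. Hoxa7 was at 5.32 and 5.81, Hoxa5 at 5.17 and 8.73 and Hoxa3 at 4.34 and 4.92. The levels of neighbours in this order differed by less than the 2 genotypes differed at several genes, and no replicate gives their spread.

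Hoxd8 was the 1 HoxD member above 5 FPKM, at 6.75 and 8.59, and Hoxd9 was at 3.00 and 3.27. Among the other HoxD members, Hoxd4 was listed at 0 and 0.78 and Hoxd10 at 0 and 1.70. Hoxd1, Hoxd3, Hoxd11, Hoxd12 and Hoxd13 were listed at 0 in both fibroblast libraries. Hoxb1, the hindbrain gene, and Hoxd11 and Hoxd12 were listed at 0 in all 4 libraries.

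The 2 fibroblast libraries differed little in Hox RNA. Of 31 members tested, 1 was at least 1 higher in AID-null fibroblasts, Hoxd10 with its 0 and 1.70 FPKM, against 4.26% of all 13788 genes tested. None was at least 1 lower, against 1.34% of all genes. The median difference over the members was 0.06, and Hoxa5 (0.66), Hoxc6 (-0.50) and Hoxb13 (0.45) stood at its edges among members of at least 5 FPKM.

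**Figure D1:**
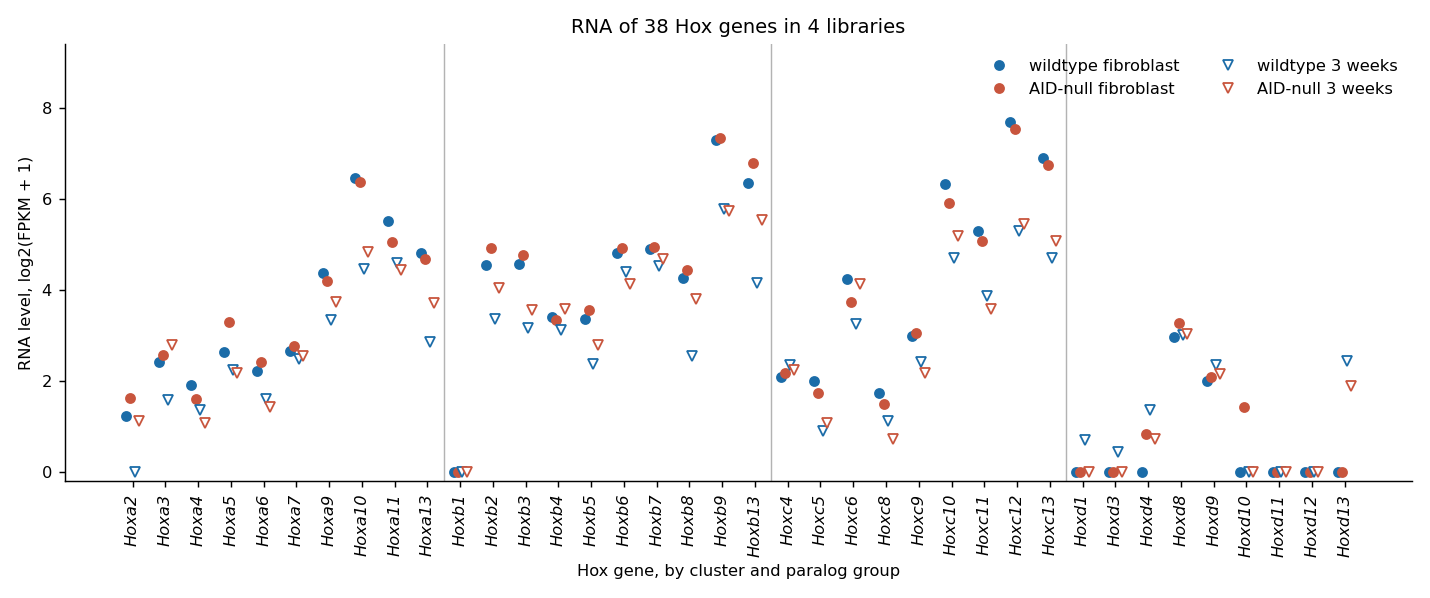
RNA level of each of the 38 members on the log2(FPKM + 1) scale, in 1 library per group (circles, fibroblasts; open triangles, 3 weeks; blue, wildtype; red, AID-null), ordered by cluster and paralog group. Posterior HoxA, HoxB and HoxC members, such as Hoxc12 at 204 FPKM in wildtype fibroblasts, lie above their 3-week values, while most HoxD members lie at 0.

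After 3 weeks of reprogramming the summed Hox RNA was lower in both genotypes, at 359 FPKM against 1057 in wildtype and 446 against 1033 in AID-null cells, and the posterior groups kept the smaller share. In wildtype cells 14 of 32 members tested were at least 1 lower and 2 were at least 1 higher, against 17.7% lower and 27.0% higher of all 15196 genes tested. The median difference was -0.95 over the members and 0.16 over all genes. In AID-null cells 10 of 32 members were at least 1 lower and 1 was at least 1 higher, against 17.6% and 21.3% of 15076 genes, with medians of -0.75 and -0.05. The 14 lower in wildtype had a negative difference in AID-null cells as well, and 7 of them were at least 1 lower in both: Hoxa10, Hoxb3, Hoxb9, Hoxb13, Hoxc11, Hoxc12 and Hoxc13.

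Wildtype Hoxc12 RNA went from 204 to 38.4 FPKM, and AID-null from 185 to 42.9, differences of -2.38 and -2.08. Hoxc13 went from 119 to 25.1 and from 106 to 32.8 (-2.20 and -1.66), and Hoxb13 from 80.0 to 16.8 and from 110 to 45.03 (-2.19 and -1.27). In both genotypes the 3-week library lay below the fibroblast library by more than the 2 fibroblast libraries differed. Hoxa10 went from 86.7 to 21.1 and from 81.2 to 27.6 (-1.99 and -1.52), and Hoxb9 from 155 to 53.6 and from 161 to 52.2 (-1.51 and -1.60). Hoxc11 went from 38.1 to 13.5 and from 32.5 to 10.9 (-1.43 and -1.49), and Hoxb3 from 22.7 to 7.95 and from 26.1 to 10.8 (-1.41 and -1.20).

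Another 7 members were at least 1 lower in wildtype cells alone. Hoxa13 was at 6.18 and 12.1 FPKM in the wildtype and AID-null 3-week cultures (differences of -1.96 and -0.97). Hoxb8 was at 4.87 and 12.8 (-1.71 and -0.65), Hoxc10 at 24.9 and 35.1 (-1.62 and -0.74) and Hoxb2 at 9.31 and 15.6 (-1.18 and -0.87). Hoxa9 was at 9.17 and 12.3 (-1.03 and -0.47). The other two were low genes: Hoxa2, of the second branchial arch, with 1.34 FPKM in wildtype fibroblasts and 0 at 3 weeks (-1.23) against 2.09 and 1.18 in AID-null cells, and Hoxc5 with 2.96 and 0.85 (-1.10) against 2.31 and 1.12. Whether the differences of the 2 genotypes differ could not be tested with 1 library per group. In AID-null cells alone, Hoxa5 (8.73 to 3.48 FPKM, -1.12), Hoxa6 (4.34 to 1.67, at the threshold itself) and Hoxd10 (1.70 to 0, -1.43) were lower by at least 1.

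The remaining members of at least 5 FPKM differed by less. Hoxa11 was at 23.1 and 20.8 FPKM at 3 weeks (-0.93 and -0.62), Hoxb5 at 4.16 and 5.95 (-0.98 and -0.75), Hoxb6 at 19.8 and 16.4 (-0.44 and -0.79) and Hoxc9 at 4.32 and 3.48 (-0.58 and -0.89). Hoxb7 at 22.1 and 24.6 (-0.37 and -0.27), Hoxa7 at 4.61 and 4.84 (-0.17 and -0.22) and Hoxd8 at 7.06 and 7.19 (0.06 and -0.23) stayed near their fibroblast levels. Hoxd13, the last HoxD gene, was listed at 0 in both fibroblast libraries and at 4.39 (wildtype) and 2.71 (AID-null) at 3 weeks (2.43 and 1.89). Hoxd4 was at 0 and 1.56 in wildtype (1.36) and at 0.78 and 0.66 in AID-null cells.

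The share of RNA that remained was smallest in the posterior paralog groups. Groups 9 to 13 kept 28.3% of their summed fibroblast FPKM in wildtype and 36.7% in AID-null cells, groups 5 to 8 kept 62.0% and 70.8%, and groups 1 to 4 kept 53.0% and 64.2%. By cluster, HoxC kept 25.5% and 35.9%, HoxA 36.6% and 49.6% and HoxB 39.2% and 45.7%. HoxD, which was low throughout, went the other way in wildtype, at 186% and 97.7% of its 9.75 and 14.3 FPKM. Within HoxC, by sums, Hoxc13 to Hoxc9 kept 23.8% and 32.1% of 447 and 390 FPKM, and Hoxc8 to Hoxc4 kept 55.6% and 109% of 26.4 and 19.97 FPKM. Single genes did not part at this border: Hoxc9 kept 62.1% and 47.8%, more than Hoxc8 at 51.3% and 35.9%. A share of summed FPKM weights each group by its most abundant genes, such as Hoxc12 on the first side and Hoxc6 on the second.

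The Hox RNA that remained was a larger share, by the median, than that of the fibroblast markers, a list of matrix genes, receptors and transcription factors. Of the 22 members at 5 FPKM or more in fibroblasts, the share kept ran from 18.8% (Hoxc12) over a median of 43.4% to 105% (Hoxd8) in wildtype cells, and from 23.2% (Hoxc12) over 54.4% to 133% (Hoxc6) in AID-null cells. The 20 fibroblast markers kept 0.604% (Col1a1) to 71.7% (Twist2) with a median of 11.3% in wildtype, and 3.29% (Postn) to 139% (Pdgfra) with a median of 36.1% in AID-null cells. Over all genes at 5 FPKM or more in fibroblasts the medians were 96.3% of 11731 genes and 86.1% of 11933 genes. The 2 sets overlapped in both genotypes.

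**Figure D2:**
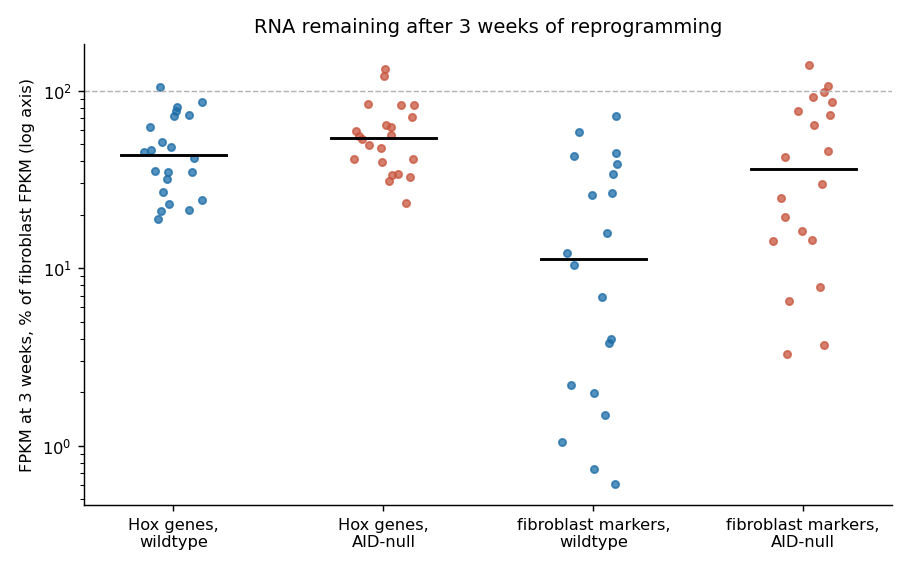
FPKM at 3 weeks as a percent of FPKM in fibroblasts of the same genotype (log axis), 1 point per gene, for 22 Hox genes and 20 fibroblast markers; black lines are medians and the dashed line is 100%. In wildtype cells the Hox points lie between 18.8% and 105% around a median of 43.4%, and the markers spread from 0.604% to 71.7% around 11.3%.

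At 3 weeks, 4 of 32 members were at least 1 higher in the AID-null than in the wildtype culture and none was lower, against 9.76% and 11.6% of all 15204 genes. These were Hoxa2 (0 and 1.18 FPKM in wildtype and AID-null, 1.12), Hoxa3 (2.00 and 5.89, 1.20), Hoxb8 (4.87 and 12.8, 1.23) and Hoxb13 (16.8 and 45.03, 1.36). The share of members called higher was near that of all genes. After upper-quartile scaling 6 members were higher and none lower, against 12.1% and 8.64% of all genes, so that the balance of all genes turned from lower to higher. The median difference was 0.15 over the members and -0.18 over all genes. Fibroblast markers were higher in the AID-null culture as well: 14 of 20 by at least 1, with a median of 1.75, and their part in the Hox differences was not tested.

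Among 11 TALE homeodomain genes, a list that holds partners of Hox proteins and also Tgif1 and Tgif2, 3 were at least 1 higher and 3 lower in wildtype cells (median -0.52) and 2 and 2 in AID-null cells (median -0.41). The 3 higher in wildtype were Tgif2, Pbx4 and Tgif1 (1.26). Of all genes 27.0% were higher and 17.7% lower in wildtype, and 21.3% and 17.6% in AID-null cells, so the share of TALE genes higher was near that of all genes. Tgif2, a repressor, was highest in its difference (13.2 to 85.2 FPKM in wildtype, 2.60, and 13.6 to 76.5 in AID-null, 2.41). The Hox partners Meis1 (23.1 to 7.32 FPKM, -1.53) and Meis2 (29.6 to 9.65, -1.52) were lower in wildtype, and Pknox2 was in AID-null cells (-2.28). Meis3 was lower in both (-1.30 and -1.31), and Pbx4 higher in both (1.28 and 1.92).

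Of 27 Polycomb and trithorax genes, which hold Hox genes silent or active, 13 were at least 1 higher and 3 lower in wildtype, and 11 and 3 in AID-null cells, against the same 27.0% and 17.7%, and 21.3% and 17.6%, of all genes. Cbx7, the main Polycomb chromobox protein of pluripotent cells, was at 13.0 and 11.1 FPKM in fibroblasts and at 219 and 172 at 3 weeks (3.97 and 3.84). Jarid2, which recruits Polycomb complex 2, went from 25.4 to 345 in wildtype (3.72), and Phc1 from 38.8 to 381 in AID-null cells (3.26). Cbx8 was lower in both (-1.24 and -1.21), and Phc2 (-1.59) and Bmi1 (-1.55) were lower in AID-null cells. Of 16 retinoic acid genes, whose ligand induces anterior Hox genes, 5 were higher and 3 lower in wildtype and 4 and 2 in AID-null cells, shares near those of all genes. The retinoic acid hydroxylase gene Cyp26a1 was at 0 in fibroblasts and at 10.4 and 5.58 FPKM at 3 weeks, and Cyp26b1 went from 125 to 3.18 in wildtype (-4.91) and from 106 to 59.6 in AID-null cells (-0.82). Crabp1, a retinoic acid binding protein, was at 53.6 FPKM at 3 weeks in wildtype cells and at 2489 in AID-null cells (5.51).

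The caudal gene Cdx1, an activator of Hox genes, was at 0 in fibroblasts and at 1.93 and 2.55 FPKM at 3 weeks, and all 6 caudal and ParaHox genes stayed at 2.55 FPKM or less in every library. Of 12 measured genes beside or inside the clusters, 3 were at least 1 higher in wildtype (Cbx1, Evx1 and Ttll6) and 0 lower, with a median of 0.04, and the Hox neighbours Skap2 (-0.51), Mtx2 (0.04) and Calcoco1 (-0.70) differed by less than 1. Of 22 homeobox genes of limb, tail and mesenchyme outside the clusters, 13 were at least 1 lower and 4 higher in wildtype (median -1.49), and 8 and 2 in AID-null cells (median -0.73). Meox2, a mesoderm homeobox gene, went from 73.2 to 5.00 FPKM in wildtype (-3.63) and Dlx5, a bone and limb gene, from 11.7 to 0 in AID-null cells (-3.67).

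DNA methylation of the clusters was taken per library over the positions covered in all 10 libraries. The methylation level of the HoxA window was 14.7% and 16.3% in wildtype and AID-null fibroblasts, 6.64% and 9.88% at 3 weeks, 6.91%, 6.92% and 7.46% in the wildtype clones and 4.00%, 3.83% and 5.22% in the AID-null clones. In the same order HoxB was at 17.9% and 18.1%, 8.53% and 12.3%, 8.72%, 9.35% and 9.18%, and 6.47%, 6.06% and 7.93%. The clusters lost methylation between fibroblasts and 3 weeks in both genotypes, and the AID-null 3-week culture lay above the wildtype one. HoxC was at 19.4% and 19.5% in fibroblasts, 9.64% and 13.3% at 3 weeks, 8.00%, 9.54% and 8.74% in wildtype and 5.27%, 5.26% and 6.92% in AID-null clones. HoxD differed least from fibroblasts, at 12.1% and 12.3%, 9.12% and 9.71%, 8.51% to 9.61% and 5.55% to 7.22%. Over all autosomal positions the levels were 29.0% and 31.9%, 23.5% and 25.2%, 22.9% to 24.0% and 21.3% to 25.2%. The 95% Wilson interval of each window level, from 117143 reads or more, covers counting error only and is at most 0.452 points wide.

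The mean of the clones minus the mean of the fibroblasts was -9.77 points in HoxA, -10.1 in HoxB, -12.2 in HoxC and -4.58 in HoxD, where the SD between clones, pooled over the 2 genotypes, was 0.581 to 0.869 points. In all 4 windows the 3 AID-null clones lay below the 3 wildtype clones, with means ± SD (n = 3) of 4.35% ± 0.759 against 7.10% ± 0.314 in HoxA, 6.82% ± 0.982 against 9.08% ± 0.329 in HoxB, 5.82% ± 0.957 against 8.76% ± 0.771 in HoxC and 6.15% ± 0.927 against 9.17% ± 0.581 in HoxD. An exact two-sided permutation test of 3 against 3 clones cannot go below p = 0.1. AID-null clone 3 was the highest of the AID-null clones in each window and over all autosomal positions.

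**Figure D3:**
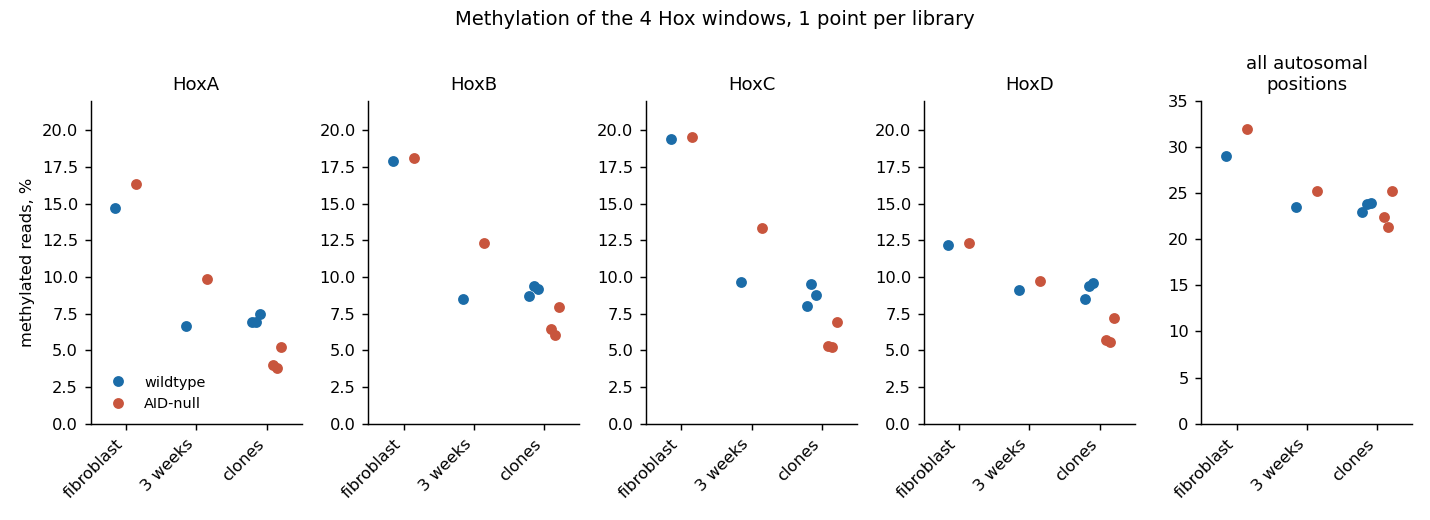
Percent of reads methylated in each Hox window and over all autosomal positions, 1 point per library (blue, wildtype; red, AID-null; clones 1 to 3 side by side). In each Hox window the AID-null point is above the wildtype point at 3 weeks and the 3 AID-null clones are below the 3 wildtype clones, whereas over all autosomal positions the clones of the 2 genotypes overlap.

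For tests the windows were divided into tiles of 1000 bp, of which 210 held 3 or more positions read in all 10 libraries: 47 in HoxA, 64 in HoxB, 52 in HoxC and 47 in HoxD. Tiles were called where the Benjamini-Hochberg adjusted p over all 108306 autosomal tiles was under 0.05 and the levels lay at least 25 percentage points apart, in a quasi-binomial model with genotype and state whose spread was moderated by limma. In clones against fibroblasts, 43 Hox tiles fell (20.5%) and 8 rose (3.81%), against 16.9% and 5.61% of all tiles. These shares were near those of all tiles. By cluster 9 fell and 1 rose in HoxA, 14 and 0 in HoxB, 16 and 6 in HoxC and 4 and 1 in HoxD. The adjusted p of the 51 tiles in this quasi-binomial fit ran from 6.59e-11 to 0.0161. Each fibroblast and 3-week group had 1 library, so the spread behind these p-values comes mostly from the clones. The fit assumes that bulk cultures vary like clones, here and in 3 weeks against fibroblasts, and does not replicate the fibroblasts. The median difference was -1.54 points over the Hox tiles and -6.57 over all tiles.

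What the tiles had in fibroblasts, and what those at 10% or more became, differed from the rest of the genome in the counts below. Of the 210 tiles, 37 (17.6%) were at 50% or more in fibroblasts, against 62.2% of all tiles, and 100 (47.6%) were under 10%, against 23.9%. Of those 37, 29 fell in clones (78.4%), against 25.6% of the 67418 tiles at that level in the genome. Their median went from 69.6% in fibroblasts to 20.9% in wildtype and 13.4% in AID-null clones, where the genome's went from 84.6% to 65.9% and 72.5%. HoxC had 12 of 13 such tiles fall, HoxA 7 of 8, HoxB 9 of 14 and HoxD 1 of 2. Of 73 Hox tiles between 10% and 50%, 14 fell and 2 rose (19.2% and 2.74%), against 6.85% and 30.8% of 14970 in the genome. Of the 100 under 10%, 6 rose (6.00%), near the 4.53% of such tiles in the genome, and 5 of the 6 lay in HoxC. The fibroblast level is one side of the comparison, so these shares are a description, and tiles that start higher have more room to fall.

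The tiles that fell furthest lay in HoxC and HoxA. HoxC tile chr15:102823001-102824000, between the place of the Gm36878 promoter (which lies between Hoxc9 and Hoxc8 in the gene order) and that of Hoxc4, was at 83.9% and 80.9% in fibroblasts, 23.0% and 43.6% at 3 weeks, and 12.4% to 13.8% in wildtype and 3.09% to 11.5% in AID-null clones (-71.8 points). It rested on 3 positions, the fewest allowed, and the HoxC tiles that follow here on 16 to 19. Just past the Hoxc4 promoter, tile chr15:102866001-102867000 went from 87.0% and 86.1% to 31.5% and 41.4% and then to 6.44% to 20.3% over the 6 clones (-71.6 points). Tile chr15:102841001-102842000 went from 79.5% and 79.4% to 17.6% and 41.2% and to 6.35% to 14.9% (-69.0 points), and its neighbour chr15:102842001-102843000 by -67.9 points. In each of these 4 tiles all 6 clones lay below both 3-week cultures, and the AID-null culture lay above the wildtype one.

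In HoxA the largest losses lay on the side of Hoxa2, Hoxa3 and Hoxa4, before the Hoxa5 promoter. Tile chr6:52113001-52114000 went from 81.1% and 79.5% in fibroblasts to 19.8% and 36.8% at 3 weeks and to 7.67% to 15.7% in the clones (-68.4 points, over 4 positions). Tile chr6:52120001-52121000 went from 81.2% and 82.8% to 26.1% and 36.8% and to 9.70% to 16.9% (-68.4 points). Tiles chr6:52127001-52128000 (-63.2 points) and chr6:52150001-52151000 (-60.6 points) followed the same course. In HoxB, tile chr11:96162001-96163000, between the Hoxb8 promoter and that of Hoxb3os, went from 61.9% and 66.6% to 16.5% and 31.3% and to 2.22% to 5.74% (-60.6 points). Of the 9 HoxA tiles that fell, 7 lay before the Hoxa6 promoter, 1 held it and 1 lay behind it.

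Of the 8 tiles that rose, the 6 of HoxC lay mostly apart from those that fell. All 6 were among the 30 tiles before the Gm36878 promoter, on the side of Hoxc13 to Hoxc9, where 3 tiles fell. On the other side, of Hoxc8 to Hoxc4, 13 of 22 tiles fell and 0 rose. The median tile was at 1.47% in fibroblasts and 6.91% in clones on the first side and at 44.1% and 8.96% on the second. Of the genes of the first side, Hoxc10, Hoxc11, Hoxc12 and Hoxc13 had the high fibroblast RNA given above and Hoxc9 had 6.96 FPKM in wildtype cells. Of the second side, Hoxc6 was the highest at 17.8 FPKM. RNA of the clones was not measured here, so the 2 readouts of the clones cannot be set against each other.

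Among the HoxC tiles that rose, chr15:102776001-102777000 was at 1.02% and 0.960% in fibroblasts, 22.2% and 23.8% at 3 weeks, 63.7%, 57.4% and 47.1% in wildtype clones and 35.1%, 37.1% and 63.9% in AID-null clones (49.7 points, adjusted p = 3.16e-07 in the quasi-binomial fit with limma). Tile chr15:102795001-102796000 was at 1.45% and 1.33%, 21.7% and 24.0%, and 36.1%, 60.6% and 59.5% in wildtype against 17.9%, 20.4% and 49.5% in AID-null clones (39.3 points). The clones were spread widely in both tiles, and AID-null clone 3 lay above the wildtype clones in the first by less than their spread and among them in the second. Tiles chr15:102780001-102781000 (35.2 points), chr15:102793001-102794000 (33.7), chr15:102796001-102797000 (27.1) and chr15:102781001-102782000 (26.0) rose by less. In HoxD, tile chr2:74560001-74561000, between Hoxd3 and Hoxd1, was at 9.62% and 14.8% in fibroblasts, 56.0% and 55.3% at 3 weeks and 62.9% to 88.2% in the clones (59.2 points). In HoxA, tile chr6:52111001-52112000 was at 4.17% and 8.10%, 29.8% and 30.9%, and 37.7% to 53.7% (40.4 points). It lay 1 tile away from the tile chr6:52113001-52114000 that fell by 68.4 points.

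**Figure D4:**
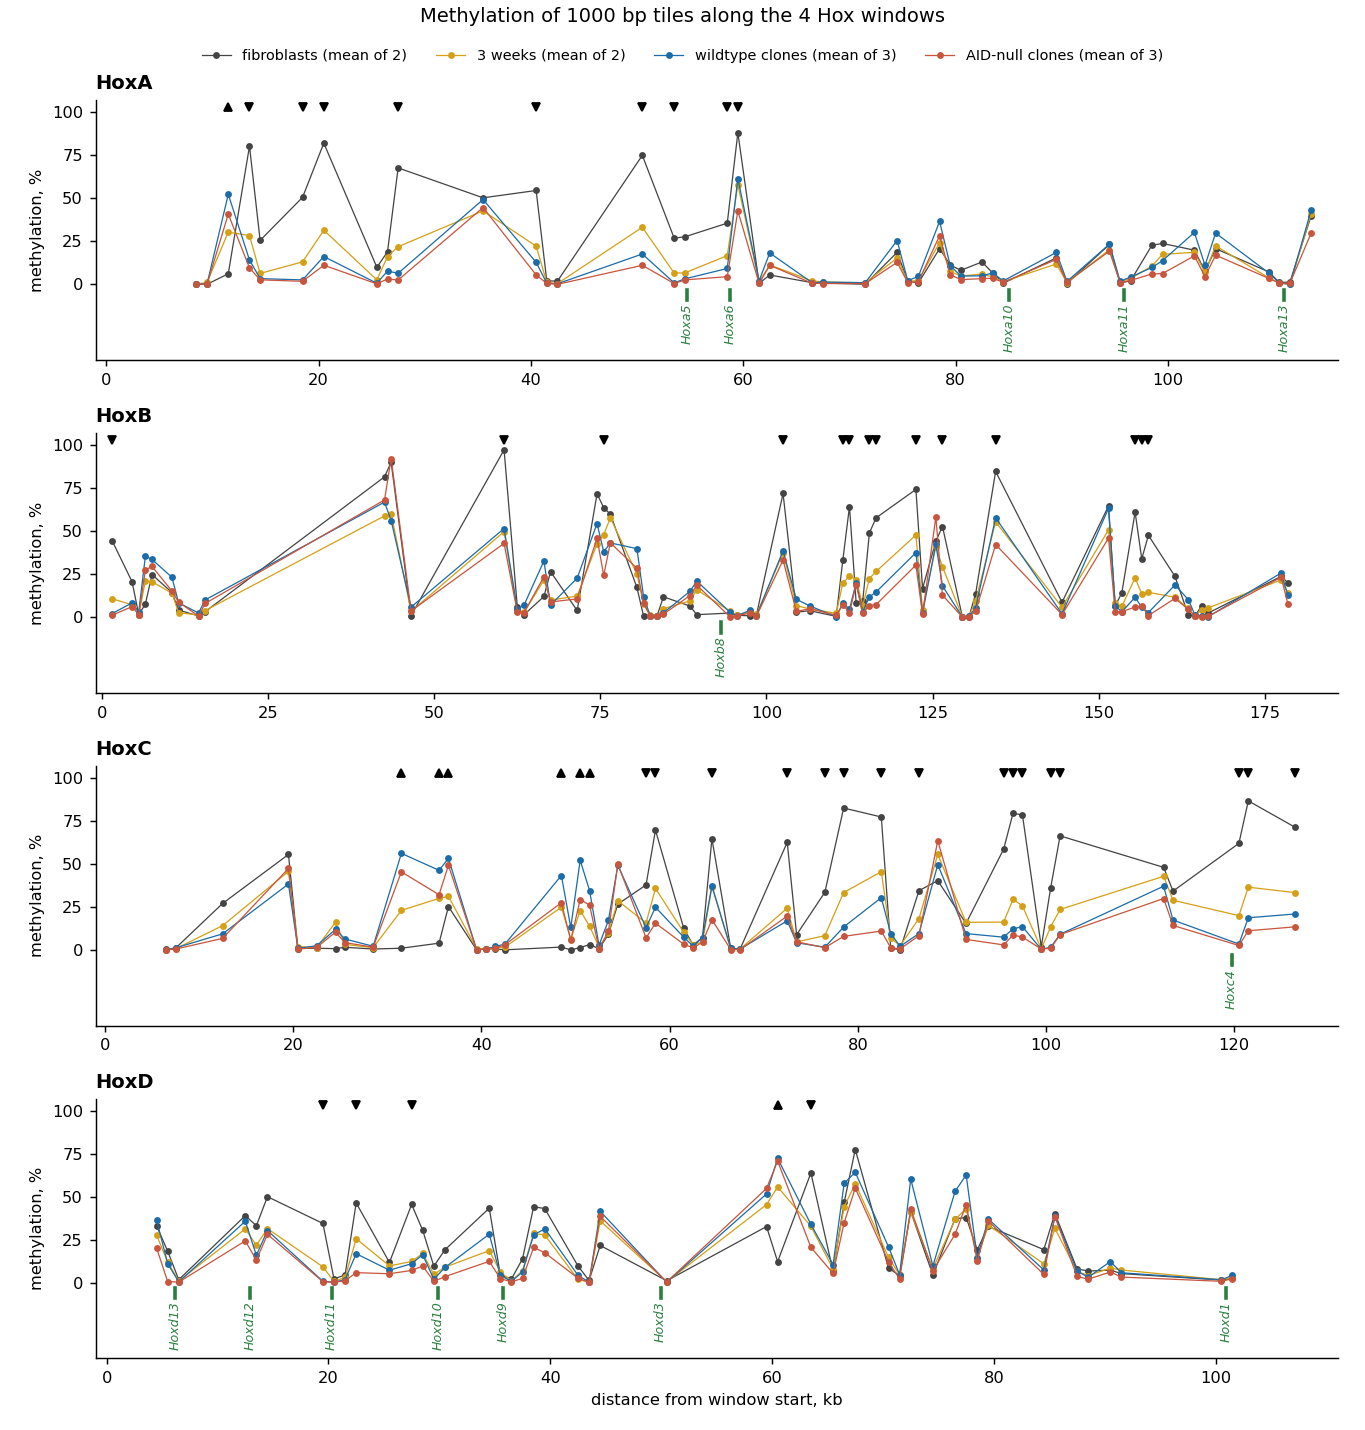
Percent methylation of 1000 bp tiles along each window, by distance from the window start in kb: fibroblasts (grey, mean of 2 libraries), 3-week cultures (yellow, mean of 2), wildtype clones (blue, mean of 3) and AID-null clones (red, mean of 3). Black triangles mark tiles called lower (43, pointing down) or higher (8, pointing up) in clones than in fibroblasts, and green ticks the 14 promoters that could be placed; the 6 rising HoxC tiles lie on the left of the window and most falling HoxC tiles on its right.

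By their medians the 3-week cultures stood between fibroblasts and clones at these tiles, but at 6 of the 43 falling tiles the wildtype culture was already below every wildtype clone. The AID-null culture was below every AID-null clone at 0 of them. The same counts were not made over falling tiles of the rest of the genome. The comparison of 3 weeks against fibroblasts shares its fibroblast libraries with that of clones. In it 31 Hox tiles fell (14.8%), near the 15.5% of all tiles, and 2 rose (0.952%), against 1.74%. Those 2 were HoxC tile chr15:102780001-102781000 (26.0 points) and HoxD tile chr2:74560001-74561000 (43.4 points). At the 43 tiles that fell in clones, the median was 62.1% and 60.4% in wildtype and AID-null fibroblasts, 16.3% and 32.9% at 3 weeks and 12.9% and 7.47% in the clones. At the 8 that rose, it was 3.21% and 3.83%, 27.9% and 25.5%, and 52.2% and 36.4%.

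The order of the genotypes changed between the 3-week cultures and the clones. Of the 43 falling tiles, 41 were higher in the AID-null than in the wildtype 3-week culture, whereas all 3 AID-null clones were below all 3 wildtype clones at 25 of them and above at 0. The 3-week difference was not particular to Hox tiles: its median was 6.34 points over all autosomal tiles and 3.08 over the Hox tiles. All 3 AID-null clones were below at 5.97% of all tiles and above at 15.2%. The 43 tiles were chosen for low levels in the clones, and no count was made over falling tiles elsewhere. Between 1 library and another, Fisher's exact test was run on each tile. It compares the libraries and not the conditions. By that test 43 Hox tiles fell and 4 rose in the wildtype 3-week culture against wildtype fibroblasts (31.4% and 2.26% of all tiles), and 23 fell and 2 rose in the AID-null pair (10.4% and 2.34%). The wildtype share of 20.5% falling was below that of all tiles, and the AID-null share of 11.0% was near it.

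Between genotypes, 1 Hox tile was called in fibroblasts, HoxB tile chr11:96211001-96212000, at 41.4% in wildtype and 5.92% in AID-null (-35.5 points), against 0.596% of all tiles lower and 0.367% higher. It rested on 4 positions and was not called at a coverage of at least 30. At 3 weeks 1 tile was called higher in AID-null, chr15:102827001-102828000 in HoxC at 32.9% and 58.0% (25.04 points), against 2.26% higher and 0.0554% lower of all tiles. The median difference of the Hox tiles was -0.09 points in fibroblasts and 3.08 at 3 weeks, and over all tiles -0.08 and 6.34.

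In the clones no Hox tile of 213 was called between AID-null and wildtype in the quasi-binomial fit moderated by limma, against 0.00353% higher and 0.000881% lower of 113450 autosomal tiles. At an unadjusted p under 0.05, 52 Hox tiles were lower and 3 higher in AID-null clones, where 15.7% of all tiles passed in either direction, and limma on log2 ratios gave 26 and 4, with 0 called. All 3 AID-null clones lay below all 3 wildtype clones at 87 Hox tiles (40.8%), against 5.97% of all tiles, and above at 3 (1.41%), against 15.2%. The count was 23 of 49 in HoxA, 21 of 65 in HoxB, 19 of 52 in HoxC and 24 of 47 in HoxD. The median difference was -2.46 points over the Hox tiles and 1.20 over all tiles. Without AID-null clone 3, an alternative chosen after seeing the data, the remaining AID-null clones lay below all wildtype clones at 135 Hox tiles (63.4%) and at 24.2% of all tiles. Such a count can only stay or rise when a clone is left out, so its rise is no result.

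Without AID-null clone 3, 4 Hox tiles of 213 (1.88%) were called lower in AID-null clones and 0 higher by the same fit, near the 1.49% of all tiles called lower, with 0.356% higher. HoxD tile chr2:74576001-74577000, between Hoxd3 and Hoxd1, was at 49.98%, 60.1% and 49.1% in wildtype and 23.9%, 28.3% and 32.2% in AID-null clones, and HoxD tile chr2:74566001-74567000 at 68.5%, 52.5% and 52.4% against 33.5%, 31.7% and 39.7%. In both tiles the groups did not overlap. HoxA tile chr6:52159001-52160000, beside the Hoxa6 promoter, was at 59.2%, 62.5% and 62.6% against 36.7%, 27.4% and 64.0%, and HoxC tile chr15:102795001-102796000 is given above. AID-null clone 3 lay above the wildtype clones in the HoxA tile and among them in the HoxC tile. The tile with the widest difference the other way, HoxB tile chr11:96093001-96094000, was at 42.4%, 69.8% and 56.1% in wildtype and 93.3%, 83.7% and 99.3% in AID-null clones over 3 positions. It was not called (adjusted p = 0.17 in the quasi-binomial fit with limma).

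**Figure D5:**
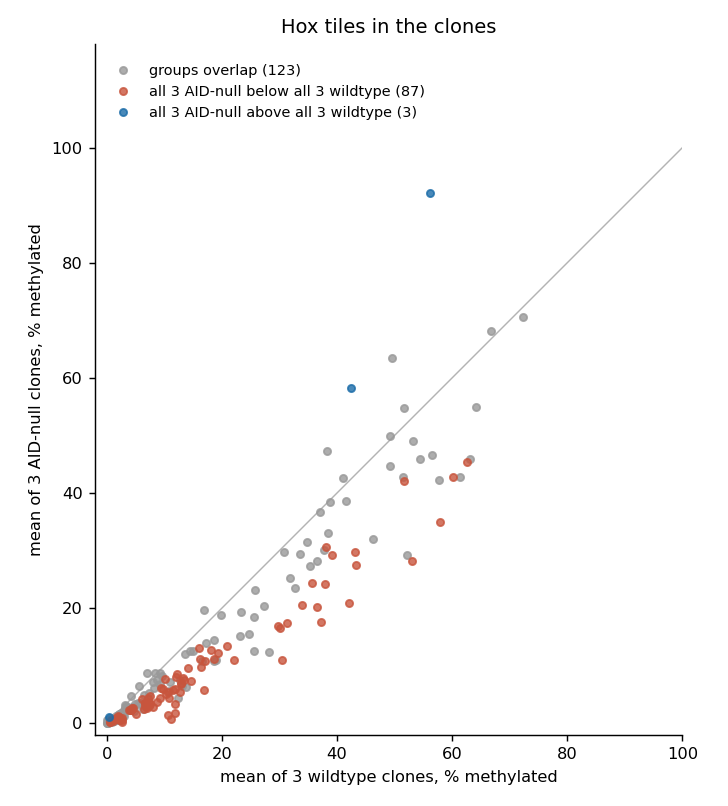
Mean methylation of the 3 AID-null clones against that of the 3 wildtype clones, 1 point for each of 213 Hox tiles; the line marks equal levels. The 87 red tiles, where every AID-null clone is below every wildtype clone, lie along the whole range below the line, and the blue tiles, where every AID-null clone is above, number 3.

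Of the promoters shown above, Hoxa5 was the most methylated in fibroblasts. Over 9 positions it was at 53.8% and 42.6% in the wildtype and AID-null fibroblasts, 8.92% and 15.6% at 3 weeks, 6.45%, 1.77% and 7.62% in wildtype clones and 2.07%, 0.405% and 8.52% in AID-null clones. The tile that holds it, chr6:52154001-52155000 with 67 positions, differed by -24.7 points between clones and fibroblasts, just short of the threshold. Hoxa5 RNA was 5.17 and 8.73 FPKM in fibroblasts and 3.72 and 3.48 at 3 weeks. Hoxa6, its neighbour, was at 17.5% and 22.6% over 14 positions in fibroblasts, 4.37% and 8.61% at 3 weeks and 0.453% to 2.00% in the clones, and its tile chr6:52158001-52159000 fell by 28.7 points. Hoxa6 RNA was 3.63 and 4.34 FPKM in fibroblasts and 2.05 and 1.67 at 3 weeks. At 3 weeks the methylation of both promoters was lower. The wildtype RNA differences were under the threshold of 1 (-0.39 for Hoxa5 and -0.60 for Hoxa6). In AID-null cells Hoxa5 passed it (-1.12) and Hoxa6 lay at the threshold itself, but neither passed after upper-quartile scaling. With 1 RNA library per group, a link between promoter methylation and RNA was not tested.

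Hoxd12, listed at 0 FPKM in every library, was at 28.9% and 29.3% over 13 positions in fibroblasts, 18.7% and 23.1% at 3 weeks and 10.2% to 20.6% in the clones. The other placed promoters with shared positions, of Hoxa11, Hoxa13, Hoxd1, Hoxd3, Hoxd9, Hoxd10, Hoxd11 and Hoxd13, stayed at 7.21% or less in all 10 libraries. They included genes with high RNA in fibroblasts (Hoxa11 and Hoxa13, at 0.339% and 0% in wildtype) and genes listed at 0 (Hoxd11 at 2.28% and Hoxd13 at 0.154%). Low methylation was therefore found at expressed and at silent members, and methylation at 1 silent member, Hoxd12. The promoters of Hoxa10, Hoxb8 and Hoxc4 were placed but held no position covered in all libraries.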

How the data were processed

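RRBS libraries (10) and RNA libraries (4) were grouped by their titles. The submitters' processing notes name mm9 and, with no roles, the tools Cufflinks, TopHat, methylKit and Bismark; versions, filters and annotation are not given in the sources used here. Per the file headers, the deposited RRBS tables give each position's coverage as a read count and the percent of reads showing C or T; no position under a coverage of 10 is listed. The RNA tables hold FPKM per gene as normalised by the authors.

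Reads per position were recovered from coverage and percent, and the top 0.1% of positions by coverage were left out. Total coverage was 222945430 to 296572452 per library at a median of 82 to 125 per position. Tiles of 1000 bp were fitted by a quasi-binomial model (genotype and state over all 10 libraries, or genotype over the 6 clones). The fit was moderated with limma 3.58.1 in R 4.3.3 and tested by F on the deviance. It was also run on simulated data in which all libraries had the same spread. Such data cannot check whether bulk cultures vary like clones. Where each side had 1 library, Fisher's exact test took the place of the model. Promoters of genes that are no members (Hoxa11os, Gm30134, Hoxb3os, Gm36878, Gm38462) were placed by the same rule after seeing the data, with at least 6 CpG sites matched, as for the members. Same-numbered clones did not pair (correlations of their deviations 0.02, -0.02 and 0.05).

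Of 20 genes listed beside or inside the clusters, 12 were in the RNA tables. Members with at least 5 FPKM in any library (23), members at 0 in 1 library of a pair and at 1 FPKM or more in the other, members with a called tile or promoter, and the 10 most changed tiles per comparison are named; of other lists, the extremes past 1, of which 1 is not reported here. The members and lists were chosen with earlier results of these data known. Alternatives tried are in the closing section.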

Additional observations from a re-analysis of the deposited data

Results flagged for a closer look

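In the Hox windows the difference AID-null minus wildtype was positive in the 3-week cultures and negative in the clones, where all 3 AID-null clones lay below all 3 wildtype clones. It was 3.24 points at 3 weeks and -2.75 in clones in HoxA, 3.77 and -2.26 in HoxB, 3.70 and -2.94 in HoxC, and 0.596 and -3.02 in HoxD. Over all autosomal positions the AID-null culture also lay above the wildtype one at 3 weeks, at 25.2% against 23.5%. There AID-null clones 1 and 2 (22.5% and 21.3%) lay below the wildtype clones (22.9% to 24.0%), and AID-null clone 3 (25.2%) lay above them. The higher level at 3 weeks was thus not particular to the Hox windows. Whether the 2 differences of a Hox window differ was not tested, since each 3-week group had 1 library.

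Among members of at least 5 FPKM in any library, 4 had differences of opposite sign in the 2 genotypes between fibroblasts and 3 weeks, on the log2(FPKM + 1) scale. Hoxa3 was at -0.83 in wildtype and 0.22 in AID-null cells, Hoxc6 at -0.98 and 0.38, Hoxb4 at -0.28 and 0.25, and Hoxd8 at 0.0566 and -0.228. These differences between genotypes were not tested either, with 1 RNA library per group.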

How the results depend on the processing

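Of the RNA counts, the number of members lower at 3 weeks was 12 to 17 in wildtype and 8 to 13 in AID-null cells under the 5 alternatives. A filter at 5 FPKM left 0 members higher in wildtype, AID-null and between fibroblasts, and a pseudocount of 0.1 made 1 member lower in AID-null at 3 weeks. Under upper-quartile scaling, which moved the median of all genes to 0.25 in wildtype and 0.14 in AID-null cells, Hoxa9 (-0.94, wildtype), Hoxa5 (-0.96) and Hoxa6 (-0.87, both AID-null) no longer passed 1. Both scalings gave 6 instead of 4 members higher in AID-null at 3 weeks, where the median of all genes moved from -0.18 to -0.02 and 0.01.

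Of the tile counts, a difference of at least 10 points gave 15 tiles higher in clones, 10 higher at 3 weeks, 15 higher and 72 lower in the wildtype pair, 21 and 53 in the AID-null pair, 4 and 14 between fibroblasts, and 39 and 1 between the 3-week cultures. Asking for at least 10 positions left 3 higher and 23 lower in clones, 0 and 16 at 3 weeks, 1 and 20 in the wildtype pair, 0 and 11 in the AID-null pair, and 0 called between fibroblasts and between 3-week cultures, with 123 instead of 210 Hox tiles tested. Tiles of 2000 bp gave 5 higher in clones, 1 at 3 weeks and 2 in the wildtype pair. A coverage of at least 30 gave 1 higher in the AID-null pair and 0 lower between fibroblasts. No count of called tiles moved by over 1.5 times when all positions were kept, with limma on log2 ratios, or with fewer groups in the fit.

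Leaving out each clone in turn gave 6 to 9 tiles higher and 43 to 44 lower in clones, 2 higher and 30 to 33 lower at 3 weeks, and 0 higher and 0 to 4 lower between the genotypes' clones. The 4 came without AID-null clone 3, where 1.49% of all tiles were called lower too, and the cause was not tested. Without that clone, HoxC tile chr15:102781001-102782000 differed by 21.3 points and chr15:102796001-102797000 by 24.7, under the threshold, and without wildtype clone 2 the first differed by 24.2. Without AID-null clone 3, 135 instead of 87 Hox tiles had every remaining AID-null clone below every wildtype clone, and 24.2% instead of 5.97% of all tiles. Leaving out a clone can only keep or raise these counts. With the clone number as a replicate block, 0 tiles were called higher and 0 lower between the clones, as without it, and 3 and 51 passed an unadjusted p under 0.05.

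As a mean of position percentages, clones minus fibroblasts was -10.995 points in HoxB and -5.40 in HoxD, and -24.9 points at the Hoxa6 promoter against -18.9 when reads were pooled. In RNA, 1 library per group limits every statement, and in the promoters only positions read in all 10 libraries count.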

Other observations

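Among the noncoding genes of the clusters, the promoters of Hoxa11os, Hoxb3os, Gm30134, Gm36878 and Gm38462 were placed and were at 4.77% methylation or less in all 10 libraries. Hoxa11os was at 0.602% in wildtype fibroblasts and 0.877% to 2.31% in the clones, and Hoxb3os at 0.7002% and 0.801% to 2.18%. Hoxa11as, an antisense RNA of Hoxa11 as the RNA tables name it, was at 29.2 and 29.4 FPKM in wildtype and AID-null fibroblasts and at 14.9 and 21.5 at 3 weeks. Hoxa11 itself was at 44.9 and 32.4, and at 23.1 and 20.8, and reads of the 2 cannot be told apart without strand.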
